A study of Homo sapiens with 12 samples.

Results

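The genes described here are 34 genes of NF-kappaB signalling and of the cytokines, chemokines and other products that it controls. They were listed by name, with earlier results of these data known. A gene counted as measured where a probe set carried its symbol alone, and where several did, the brightest of them on average stood for the gene. That held for 31 of the 34 genes, out of 11963 genes so measured in the series, while CSF2, BIRC3 and SOD2 are not analysed here. RNA was profiled on 12 Affymetrix arrays from 22RV1 and LnCaP cells, both established human prostate cancer lines. In each line, 3 replicates were untreated and 3 had spent 24 h in nicotine, given as the tartrate salt at 100 µM. No vehicle is named for the untreated cells, and separate cultures are not stated, so the spread behind each p-value may be technical. Each group is thus a single cultured line, without the leukocytes and stroma that surround a tumour. In such bulk RNA, fewer expressing cells and less RNA per cell cannot be told apart.

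NF-kappaB is a family of dimeric transcription factors that rest in the cytoplasm, bound by inhibitors such as IkappaB-alpha, the product of NFKBIA. Signals from tumour necrosis factor, interleukin-1 or microbial products activate the IkappaB kinase complex, the inhibitor is degraded, and the dimers enter the nucleus and bind kappaB sites. Their targets include chemokines that attract neutrophils and monocytes, cytokines such as interleukin-6, and the pathway's own inhibitors, among them NFKBIA and TNFAIP3, which close a feedback loop. Interleukin-6 in turn binds its receptor chain IL6R and signals through the shared chain IL6ST (gp130) to JAK kinases and STAT3. The series title places the cell line work beside an inflammation signature of tumours from smokers, and the arrays ask whether nicotine alone changes expression in cultured tumour cells.

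The arrays of a group correlated with r of at least 0.992, and arrays of different lines with r of at most 0.933. Array medians over all 22277 probe sets lay between 6.61 and 6.71 on the log2 scale. All 8 measured markers of prostate luminal epithelium, KLK3 and KRT18 among them, were above the array median on all 12 arrays. Of 13 leukocyte markers, 0 were above it on all arrays and 13 were below it on all arrays, with levels from -3.50 to -0.78 against the median. The mean level of the leukocyte list ranged from -2.01 to -1.75 over the untreated 22RV1 arrays, from -1.88 to -1.87 with nicotine, from -1.77 to -1.69 over the untreated LnCaP arrays and from -1.80 to -1.65 with nicotine. Of 9 fibroblast markers 7 were below the median on all arrays, and of 8 endothelial markers 7 were. The fibroblast exceptions were COL1A1, which was above it on all arrays, and LUM. LUM was at -0.05 ± 0.76 (SD, n = 3) in untreated 22RV1 and -3.61 ± 0.16 in untreated LnCaP. The endothelial exception was VWF, at -2.58 ± 0.26 (SD, n = 3) in untreated 22RV1 and 0.71 ± 0.18 in untreated LnCaP.

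Promoter letters are shown first, since some of the genes, though not all, share a kappaB match there. RefSeq promoter windows on GRCh38.p14, running from 250 bases before to 50 bases after an annotated start, were matched by symbol for 25 of the 31 measured genes. Windows for CCL2, CCL5, CSF3, IER3, LIF and RELB were not used here. A match to the kappaB consensus on either strand stood in at least 1 window of 16 of the 25 genes (64.0%), against 13.3% of the 27305 genes with a window (11.3% of the 35116 windows). CXCL8, TNF and ICAM1 were among the members with a window and no match. The form of the consensus found in the most members, the 10 bases GGGAATTTCC, was in 7 of the 25 genes when searched on both strands: CXCL1, CXCL2, CXCL3, CXCL5, CXCL6, NFKB1 and NFKBIA. Its share was 0.18% over all genes with a window and 0.15% over all windows. In the 5 chemokines it overlaps a further consensus match on the opposite strand, shifted by 1 base. Many of these genes are on the list as known NF-kappaB targets and the form was picked from their own promoters, so the shares describe the list and test nothing.

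Each line below gives up to 72 bases upstream of the start, on the gene's strand from 5′ to 3′, with the kappaB letters in capitals. They are shown because the same 10 letters stand before chemokine genes that were below the array median here and before NFKB1 and NFKBIA, which were above it. Whether the letters bear on the levels was not tested. IL6 and TNFAIP3 are added as a cytokine and a feedback inhibitor with other kappaB letters. The stretches lie, in the order of the lines, at chr4:73869284-73869343 (plus strand), chr4:74099244-74099303 (minus), chr4:74038739-74038798 (minus), chr4:73998739-73998798 (minus), chr4:73836558-73836617 (plus), chr4:102501280-102501339 (plus), chr14:35404801-35404860 (minus), chr7:22727097-22727156 (plus) and chr6:137867162-137867233 (plus).
CXCL1: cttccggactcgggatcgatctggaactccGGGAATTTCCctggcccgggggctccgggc
CXCL2: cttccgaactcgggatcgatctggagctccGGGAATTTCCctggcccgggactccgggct
CXCL3: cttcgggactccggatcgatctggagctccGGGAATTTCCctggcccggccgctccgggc
CXCL5: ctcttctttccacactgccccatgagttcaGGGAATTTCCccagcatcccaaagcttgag
CXCL6: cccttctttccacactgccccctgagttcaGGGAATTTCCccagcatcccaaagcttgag
NFKB1: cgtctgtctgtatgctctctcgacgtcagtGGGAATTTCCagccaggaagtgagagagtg
NFKBIA: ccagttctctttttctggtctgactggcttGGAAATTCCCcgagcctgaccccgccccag
IL6: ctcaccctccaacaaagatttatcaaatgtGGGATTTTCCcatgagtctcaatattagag
TNFAIP3: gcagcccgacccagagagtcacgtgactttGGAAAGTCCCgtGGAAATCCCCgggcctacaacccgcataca

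The chemokine stretches fall into a pair of groups. Aligned at the match, CXCL1 and CXCL3 carried the same base at 55 of 60 positions, CXCL1 and CXCL2 at 51, and CXCL5 and CXCL6 at 58. Between the groups, 23 to 26 of 60 positions were the same. Counted from the start, the match began at -79 in CXCL1 and CXCL3, at -78 in CXCL2, at -91 in CXCL5 and at -90 in CXCL6. In NFKBIA the letters stand on the opposite strand from -81, in NFKB1 they begin at -49, and TNFAIP3 holds a pair of matches on the opposite strand at -67 and -55. Of the 31 measured genes 7 lie on chromosome 4, and 6 of these, CXCL8, CXCL6, CXCL1, CXCL5, CXCL3 and CXCL2, follow each other there with only PF4V1, PF4 and PPBP among the protein-coding genes between them. The CXCL2 probe set is of a type that Affymetrix marks as open to other transcripts, so its signal may hold theirs too.

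**Figure D1:**
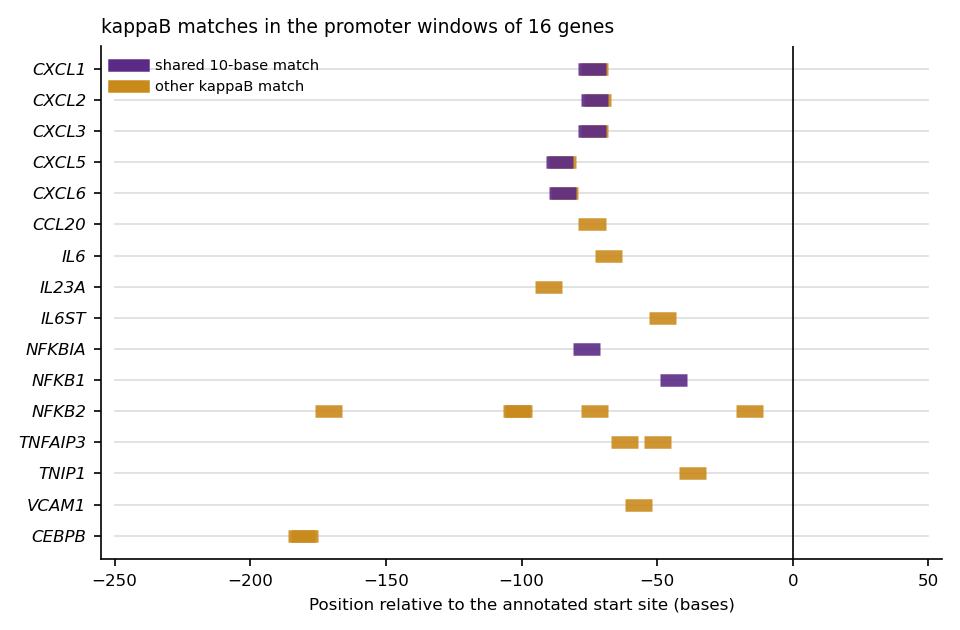
Position of kappaB matches (bars, 10 bases) from 250 bases before to 50 bases after the annotated start site (0, black line) for the 16 measured genes with a match, with the windows of a gene that has several starts laid over each other. Purple bars are the form shared by 7 genes, which begins between -91 and -49, and yellow bars are other matches.

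Most of the genes lay below the array median whatever the line or treatment. Of the 31 genes, 22 were below it on all 12 arrays, 6 were above it on all arrays (IL6ST, NFKBIA, NFKB1, NFKB2, TNIP1 and CEBPB) and 3 were on both sides (LIF, IL6R and ICAM1). Over all genes, 36.2% were below on all arrays and 48.8% above. Levels are given as log2 expression minus the array median, as mean ± SD over the 3 arrays of a group. The probe sets differ in how strongly they bind their targets and no detection call was used, so a low level is not read as absence, and levels of different genes are not ranked.

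All 9 chemokines were below the median on every array, with group means from -3.58 to -2.10. CXCL8, the neutrophil attractant interleukin-8, was at -2.67 ± 0.09 in untreated 22RV1, -2.64 ± 0.07 with nicotine, -2.46 ± 0.19 in untreated LnCaP and -2.49 ± 0.08 with nicotine. CXCL6, another neutrophil attractant, was at -3.58 ± 0.04, -3.53 ± 0.03, -3.38 ± 0.13 and -3.44 ± 0.16 in the same order. For both genes the arrays overlapped in every comparison of lines or treatments. CCL2, which attracts monocytes, was between -3.25 and -2.99 over the groups, and CCL20, a ligand of CCR6 on lymphocytes and dendritic cells, between -2.77 and -2.52. CCL5, which attracts T cells, was at -2.58 ± 0.08 and -2.66 ± 0.03 in 22RV1 and at -2.13 ± 0.08 and -2.10 ± 0.05 in LnCaP.

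The 7 measured cytokines had group means from -2.45 to 0.18. IL6 was at -1.59 ± 0.13 in untreated 22RV1, -1.56 ± 0.16 with nicotine, -1.35 ± 0.04 in untreated LnCaP and -1.49 ± 0.14 with nicotine. TNF, the founding inducer of the pathway, was between -2.38 and -2.15 over the groups, IL1A between -2.45 and -1.93 and IL1B between -1.28 and -1.06. LIF, a cytokine of the interleukin-6 family that signals through IL6ST, was the member of this role that passed the median: it was at -0.64 ± 0.10 and -0.48 ± 0.09 in 22RV1, and at 0.18 ± 0.23 and 0.15 ± 0.19 in LnCaP. CSF3, which encodes the granulocyte growth factor, was between -0.32 and -0.18.

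Of the 6 NF-kappaB subunit and inhibitor genes, 4 were above the median on every array. NFKBIA was at 4.13 ± 0.20 in untreated 22RV1, 4.11 ± 0.22 with nicotine, 3.84 ± 0.15 in untreated LnCaP and 3.66 ± 0.16 with nicotine. NFKB1 and NFKB2, the precursors of the p50 and p52 subunits, had group means from 1.21 to 2.28 and from 0.75 to 1.25, and TNIP1, a partner of the inhibitor encoded by TNFAIP3, from 1.32 to 1.55. RELB, the partner of p52, was below the median on every array with means from -1.34 to -1.18, as was TNFAIP3 from -1.07 to -0.62. Among the other inducible targets, the transcription factor gene CEBPB was above the median in all groups, from 3.91 to 4.04. The adhesion molecule gene VCAM1 was between -3.08 and -2.97, PTGS2, which encodes cyclooxygenase-2, between -3.37 and -3.17, and TNFAIP6 between -3.14 and -2.94. ICAM1, the other adhesion molecule of the list, lay near the median, from -0.20 to -0.14.

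**Figure D2:**
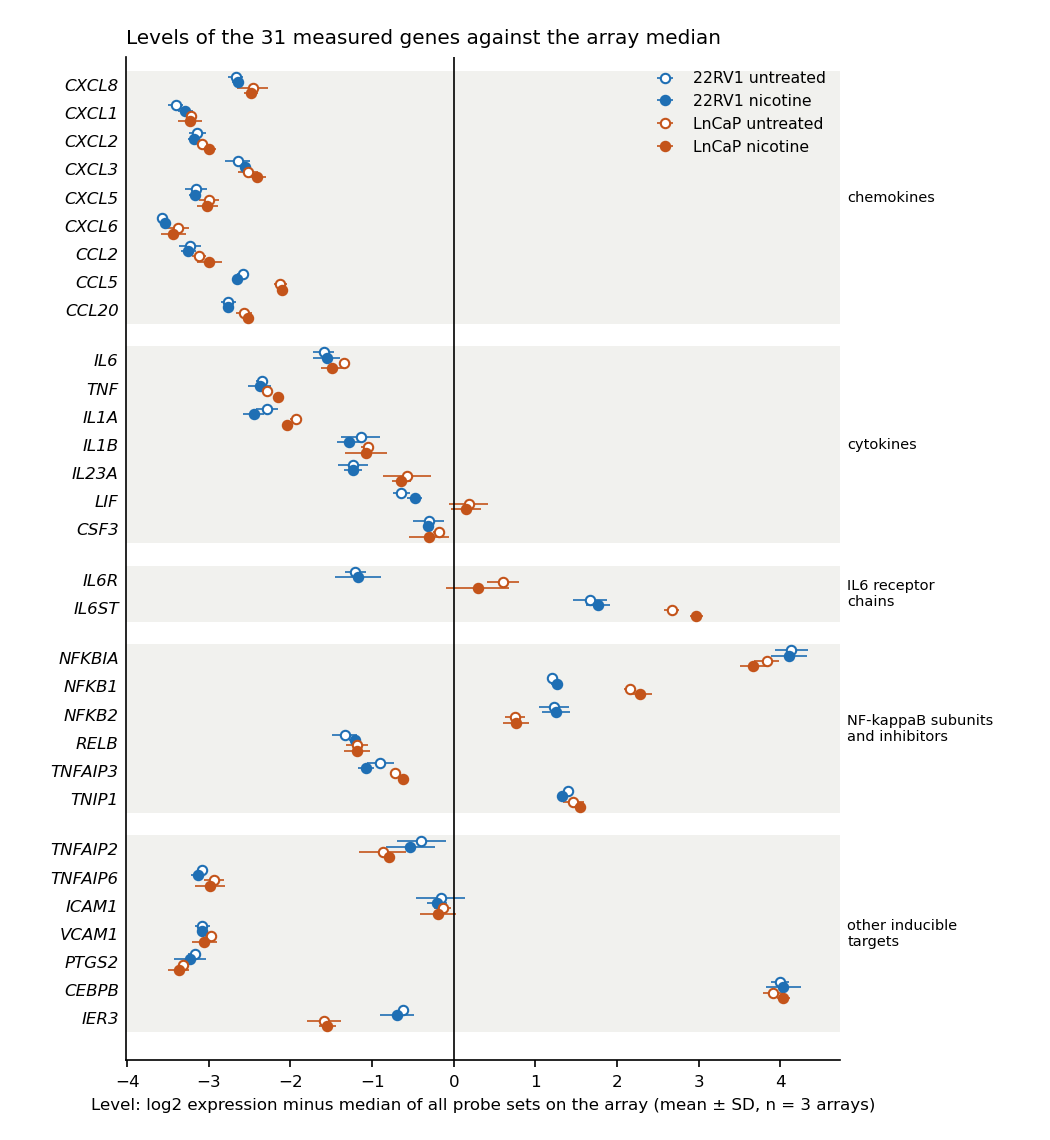
Level of each of the 31 measured genes, as log2 expression minus the median of all probe sets on the array (horizontal axis, 0 is the median), by group (colour: line, open: untreated, filled: nicotine), with points and bars for mean and SD over 3 arrays. The 9 chemokines sit at -2.10 or below in all 4 groups, and NFKBIA and CEBPB at 3.66 or above.

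After nicotine, no gene of the list passed the threshold in 22RV1, and in LnCaP IL6ST passed only where the replicate number was a block. Without the block, in 22RV1, limma called 0 of the 31 genes at an adjusted p under 0.05, with 0 at an unadjusted p under 0.05, where 0% of all 11963 genes were called and 5.29% had such an unadjusted p. In LnCaP it called 0 of the 31, with 1 at an unadjusted p under 0.05, where 0.694% of all genes were called and 12.2% had such an unadjusted p. The median log2 difference of the 31 genes was 0.0051 in 22RV1 and 0.0116 in LnCaP, against -0.00708 and -0.00139 over all genes, with 16 positive and 15 negative values in each line. The values ran from -0.15 to 0.18 in 22RV1 and from -0.29 to 0.32 in LnCaP. The 95% intervals of all 31 genes reached from -0.53 to 0.46 in 22RV1 and from -0.70 to 0.58 in LnCaP. Each interval covers the array signal of its own gene and not all 31 at once, so larger changes in RNA are not excluded. Averaged over the lines, 0 of the 31 were called, with 1 at an unadjusted p under 0.05 (0.376% of all genes called, 1393 of 11963 at that unadjusted p). For the difference of the effects between the lines 0 were called, with 0 at an unadjusted p under 0.05 (0% of all genes called, 749 of 11963 at that unadjusted p). With the replicate number as a block within the line, 1 of 31 was called in LnCaP with 2 at an unadjusted p under 0.05 (5.39% of all genes called, 20.1% at that unadjusted p). With the same block, 0 were called in 22RV1 with 1 at an unadjusted p under 0.05 (0% of all genes called, 11.3% at that unadjusted p). For the average with the block 0 were called, with 1 at that unadjusted p (3.31% of all genes called, 2416 of 11963 at that p). For the difference with the block 0 were called, with 2 at that unadjusted p (0.159% of all genes called, 1577 of 11963 at that p).

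The array values with and without nicotine overlapped in 22RV1 for all genes but CXCL3 and LIF, and in LnCaP for all but TNF, IL6ST and TNFAIP3. Over all genes, 11.9% did not overlap in 22RV1 and 17.2% in LnCaP, so these 2 and 3 of 31 do not exceed the background. IL6 read 5.03, 5.03 and 5.21 in untreated 22RV1 and 4.99, 5.32 and 5.12 with nicotine, and 5.22, 5.32 and 5.28 in untreated LnCaP and 5.29, 5.06 and 5.10 with nicotine. The groups overlapped in both lines, with log2 differences of 0.05 ± 0.10 (SE, n = 3 per group, limma adjusted p = 0.997) and -0.13 ± 0.10 (adjusted p = 0.735). CXCL8 read 4.03, 3.92 and 4.08 against 4.02, 4.03 and 4.13 in 22RV1, and 4.33, 4.19 and 3.96 against 4.10, 4.12 and 4.24 in LnCaP. Here too the groups overlapped, at 0.05 ± 0.10 (limma adjusted p = 0.997) and -0.01 ± 0.10 (adjusted p = 0.989). The 95% intervals were -0.16 to 0.26 and -0.22 to 0.20. They are for array signal at a low level, with a spread that may be technical, and do not bound a change in RNA. TNF read 4.35, 4.40 and 4.27 in untreated LnCaP and 4.42, 4.52 and 4.53 with nicotine, without overlap, but the difference of 0.15 ± 0.08 did not pass (adjusted p = 0.552). In 22RV1 the same gene overlapped, at 4.34, 4.27 and 4.39 against 4.42, 4.16 and 4.38, with a difference of -0.01 ± 0.08.

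IL6ST, the signalling chain shared by interleukin-6 and LIF, had the smallest nicotine p-value of the list. It read 9.31, 9.37 and 9.20 in untreated LnCaP and 9.69, 9.61 and 9.54 with nicotine, and all 3 treated arrays were above all 3 untreated ones. The difference was 0.32 ± 0.12 (SE, n = 3 per group), or 1.25-fold, and did not pass over all genes in limma (adjusted p = 0.270). With the block, the same 0.32 had an SE of 0.07 and passed (adjusted p = 0.0367, 1 of 31 genes called, against 5.39% of all genes, 2.11% higher and 3.28% lower). The treated array was higher in 3 of 3 same-numbered pairs, by 0.38, 0.24 and 0.34. The other 4 probe sets of IL6ST had positive values in LnCaP, from 0.265 to 0.560, and with the block over all probe sets these 4 did not pass (adjusted p from 0.0697 to 0.300). In 22RV1, IL6ST read 8.47, 8.5 and 8.09 untreated and 8.60, 8.52 and 8.30 with nicotine, which overlapped (0.12 ± 0.12, adjusted p = 0.993). The difference of the effect between the lines did not pass, at 0.20 ± 0.17 (adjusted p = 0.931).

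The next genes by p-value did not pass with the block or without it. In 22RV1 these were TNFAIP3, which encodes the ubiquitin editor A20, at -0.15 ± 0.10 (adjusted p = 0.969), CXCL1 at 0.13 ± 0.09 (adjusted p = 0.975) and IL1A at -0.14 ± 0.10 (adjusted p = 0.975). In LnCaP NFKB1 followed TNF, at 0.14 ± 0.09 (adjusted p = 0.606). IL6R, the other receptor chain, had a negative value in LnCaP, -0.29 ± 0.19 (adjusted p = 0.621, and 0.150 with the block), with the treated array lower in 3 of 3 pairs (-0.26, -0.56 and -0.06), while its dimmer probe set was at 0.08. NFKBIA, whose transcript is a fast read-out of NF-kappaB activity, read 10.82, 11.03 and 10.61 in untreated 22RV1 and 10.87, 10.99 and 10.55 with nicotine. In LnCaP it read 10.42, 10.63 and 10.33 untreated and 10.45, 10.34 and 10.13 with nicotine. The groups overlapped in both lines, with differences of -0.01 ± 0.14 (adjusted p = 0.997) and -0.15 ± 0.14 (adjusted p = 0.790). A single time point was taken, so an earlier change is not covered.

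**Figure D3:**
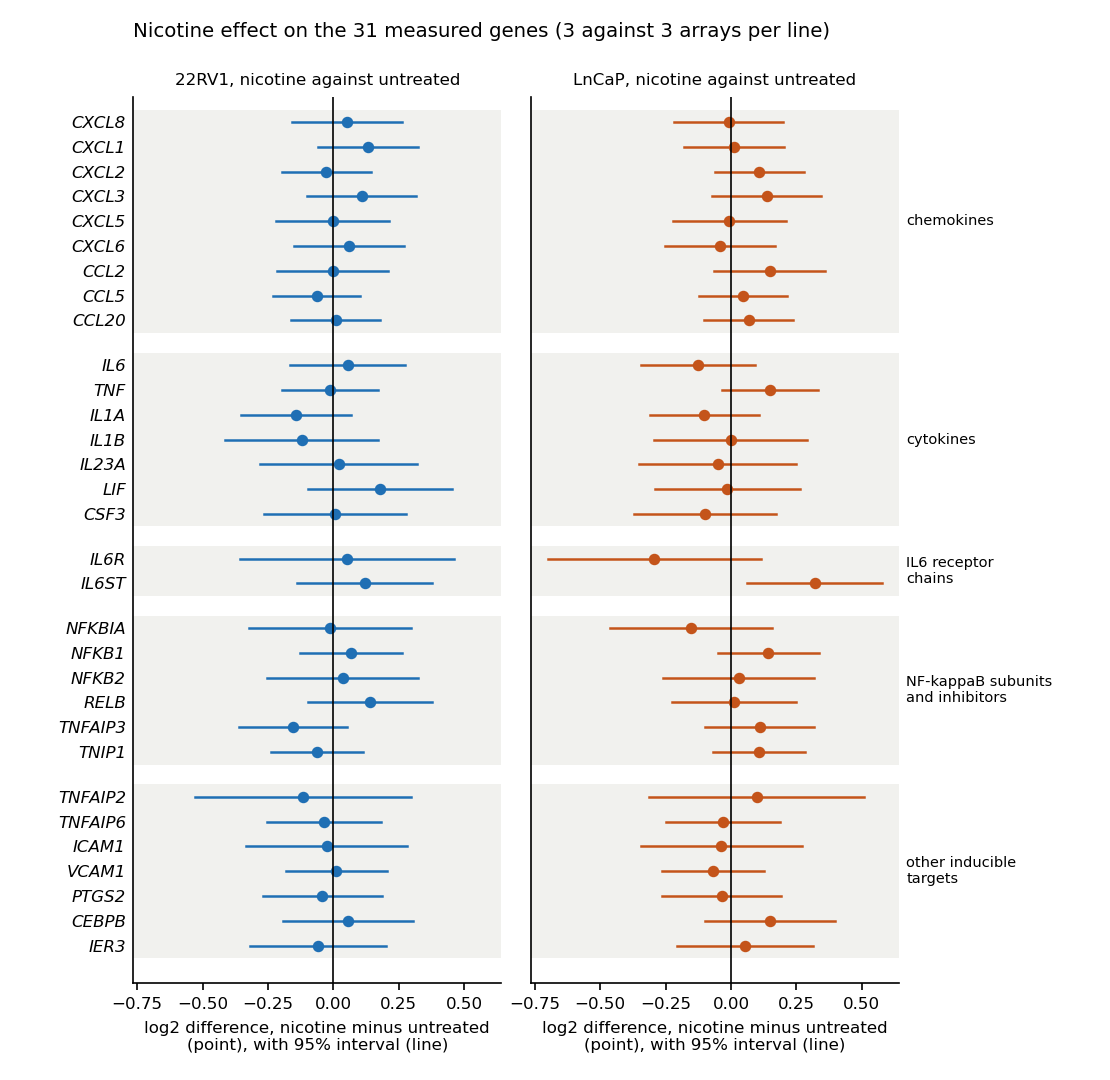
Nicotine minus untreated difference (log2, horizontal axis) of the 31 measured genes in 22RV1 (left) and LnCaP (right), with the point for the estimate and the line for its 95% interval from limma, 3 against 3 arrays. All intervals but that of IL6ST in LnCaP (0.06 to 0.58) include 0, and that gene's adjusted p was 0.270.

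The lines differed in a minority of these genes, with the largest differences in IL6R, IER3, IL6ST and NFKB1 on untreated arrays. Between untreated LnCaP and untreated 22RV1, 10 of the 31 genes were called, 7 higher in LnCaP and 3 lower, where 47.8% of all genes were called (25.4% higher and 22.4% lower). Between the nicotine-treated groups, which are other arrays, 11 were called, 8 higher and 3 lower, where 49.9% of all genes were called (26.2% and 23.7%). The 9 genes called in both comparisons had the same direction in both: CCL5, IL1A, IL23A, LIF, IL6R, IL6ST and NFKB1 were higher in LnCaP, and NFKB2 and IER3 lower. Without the replicate block, TNFAIP2 was called without nicotine only, and NFKBIA and TNFAIP3 with nicotine only. The difference between these results was not called for any of them. With the block, TNFAIP2 and NFKBIA were called in both settings and CCL20 with nicotine, where 52.6% of all genes were called untreated and 54.7% with nicotine. The share of members called was below that of all genes, and most members had low levels. By a split added after these values were seen, 25 members had a mean over the 12 arrays below the array median, and 7 of them were called in the untreated comparison, against 29.3% of all genes below it. Of the 6 members above it 3 were called, against 62.1%. The median difference of the 31 genes was 0.09, against 0.047 over all genes. The arrays of the lines did not overlap for 12 of the 31 genes untreated and 13 with nicotine. Over all genes, 55.6% did not overlap untreated and 58.9% with nicotine, so separate lines are not particular to these members.

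Both interleukin-6 receptor chains were higher in LnCaP. IL6R, which binds the cytokine, read 5.46, 5.62 and 5.35 in untreated 22RV1 and 7.01, 7.25 and 7.41 in untreated LnCaP. With nicotine it read 5.59, 5.79 and 5.21 against 6.75, 6.69 and 7.36, and in neither setting did the lines overlap. The difference was 1.75 ± 0.19 (SE, n = 3 per group, limma adjusted p = 8.41e-06) untreated, a 3.36-fold higher signal, and 1.40 ± 0.19 (adjusted p = 4.78e-05) with nicotine. A second, dimmer probe set of IL6R was also called in both comparisons (0.50 and 0.57). For IL6ST the lines were likewise apart, by 0.94 ± 0.12 (adjusted p = 3.23e-05) untreated and 1.14 ± 0.12 (adjusted p = 5.85e-06) with nicotine. All 5 probe sets of IL6ST were called higher in LnCaP in both comparisons, from 0.90 to 1.23 untreated.

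Among the cytokines, LIF showed the clearest line difference. It read 5.99, 6.01 and 6.13 in untreated 22RV1 and 6.73, 7.07 and 6.62 in untreated LnCaP, without overlap. With nicotine the values were 6.14, 6.33 and 6.19 against 6.92, 6.89 and 6.57, again without overlap, and the differences were 0.76 ± 0.13 (adjusted p = 0.000311) and 0.57 ± 0.13 (adjusted p = 0.00237). IL23A, a subunit of interleukin-23, read 5.43, 5.29 and 5.63 against 6.0, 5.79 and 6.37 untreated and 5.43, 5.40 and 5.58 against 5.97, 5.92 and 6.12 with nicotine. All LnCaP arrays were above all 22RV1 arrays, by 0.60 ± 0.14 (adjusted p = 0.00301) and 0.53 ± 0.14 (adjusted p = 0.00636), while its other probe sets were not called. IL1A read 4.56, 4.27 and 4.36 against 4.67, 4.63 and 4.78 untreated, a difference of 0.30 ± 0.10 (adjusted p = 0.0201). With nicotine it read 4.11, 4.33 and 4.31 against 4.52, 4.68 and 4.59, a difference of 0.34 ± 0.10 (adjusted p = 0.00952), and the lines overlapped in neither setting. This call was the less stable one: its other probe set had values of -0.07 and -0.18, and the untreated call was lost without the arrays numbered 3 (0.24, adjusted p = 0.143), without untreated 22RV1 replicate 2 (0.24) or replicate 3 (0.28) and without untreated LnCaP replicate 3 (0.26). IL6 itself was at 0.19 ± 0.10 untreated (adjusted p = 0.151) and 0.01 ± 0.10 with nicotine, and TNF at 0.0042 ± 0.084 and 0.17 ± 0.08 (adjusted p = 0.125).

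CCL5 was the chemokine called without the replicate block. It read 4.21, 4.08 and 4.02 in untreated 22RV1 and 4.58, 4.46 and 4.45 in untreated LnCaP, and 4.02, 4.08 and 4.01 against 4.47, 4.59 and 4.56 with nicotine. The lines did not overlap, at 0.39 ± 0.08 (limma adjusted p = 0.00104) and 0.50 ± 0.08 (adjusted p = 0.000147), but the other probe set of CCL5 was at 0.0032 and 0.09 and was not called. CCL5 was below the array median on every array, at levels that leukocyte markers also had here. Positive untreated differences were seen in 8 of the 9 chemokines. The remaining 8 chemokines did not pass in either comparison without the block. With it, CCL20 passed on treated arrays (0.19, limma adjusted p = 0.0404). CXCL8 was at 0.15 ± 0.10 untreated (adjusted p = 0.227) and 0.09 ± 0.10 with nicotine, and CXCL2, whose product also draws neutrophils, had values of -0.0059 ± 0.078 and 0.13 ± 0.08.

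NFKB1 and NFKB2 differed in opposite directions, and on untreated arrays the other 4 of the 6 subunit and inhibitor genes did not pass without the block. NFKB1 read 7.89, 7.87 and 7.93 in untreated 22RV1 and 8.69, 8.82 and 8.84 in untreated LnCaP, and 7.88, 8.0 and 8.01 against 8.82, 9.11 and 8.84 with nicotine. The lines were apart in both settings, with LnCaP higher by 0.89 ± 0.09 (adjusted p = 4.89e-06) and 0.96 ± 0.09 (adjusted p = 2.24e-06). NFKB2 went the other way, at 7.97, 8.09 and 7.69 against 7.23, 7.45 and 7.45 untreated, a difference of -0.54 ± 0.13 (adjusted p = 0.00463). With nicotine it read 8.02, 8.09 and 7.74 against 7.29, 7.61 and 7.32, a difference of -0.55 ± 0.13 (adjusted p = 0.00408), again without overlap. A second probe set of NFKB2 was at -0.34 and -0.42 and was called with nicotine only, and another, far dimmer one was at 0.08 and -0.03. NFKBIA was lower in LnCaP with nicotine, by -0.50 ± 0.14 (adjusted p = 0.0107) and without overlap. The untreated difference of -0.36 ± 0.14 did not pass (adjusted p = 0.0552) and its groups overlapped, but it passed with the block (adjusted p = 0.00334). Without nicotine-treated 22RV1 replicate 2 the NFKBIA difference with nicotine did not pass either (-0.41, adjusted p = 0.0507). TNFAIP3 was higher in LnCaP with nicotine, at 5.72, 5.66 and 5.51 against 6.03, 5.99 and 6.03 (0.39 ± 0.10, adjusted p = 0.00458), and at 0.12 ± 0.10 untreated (adjusted p = 0.323), where the values 5.92, 5.87 and 5.57 and 5.91, 5.88 and 5.93 overlapped. Its dimmer probe set was not called.

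IER3, an early response gene known to affect cell survival, was lower in LnCaP. It read 6.04, 6.10 and 6.05 in untreated 22RV1 and 5.27, 4.92 and 4.92 in untreated LnCaP, and 6.03, 5.79 and 6.18 against 4.97, 5.21 and 5.10 with nicotine. The lines were separate in both settings, with differences of -1.02 ± 0.12 (adjusted p = 1.76e-05) and -0.91 ± 0.12 (adjusted p = 4.18e-05). TNFAIP2 read 6.45, 6.49 and 5.92 against 5.95, 5.88 and 5.43 untreated, where the groups overlapped, with a called difference of -0.53 ± 0.19 (adjusted p = 0.0338). Its other probe set was at -0.16 untreated and -0.03 with nicotine and was not called. The TNFAIP2 call on untreated arrays was lost without untreated 22RV1 replicate 1 (-0.45) or replicate 2 (-0.43) and without untreated LnCaP replicate 3 (-0.37). With nicotine the values 6.51, 6.09 and 5.91 and 5.86, 5.92 and 5.77 overlapped (-0.32 ± 0.19, adjusted p = 0.184, and 0.0354 with the block). ICAM1 (-0.04 and -0.05), VCAM1 (0.05 and -0.03), PTGS2 (-0.20 and -0.20), CEBPB (-0.15 and -0.06) and TNFAIP6 (0.09 and 0.09) did not pass.

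**Figure D4:**
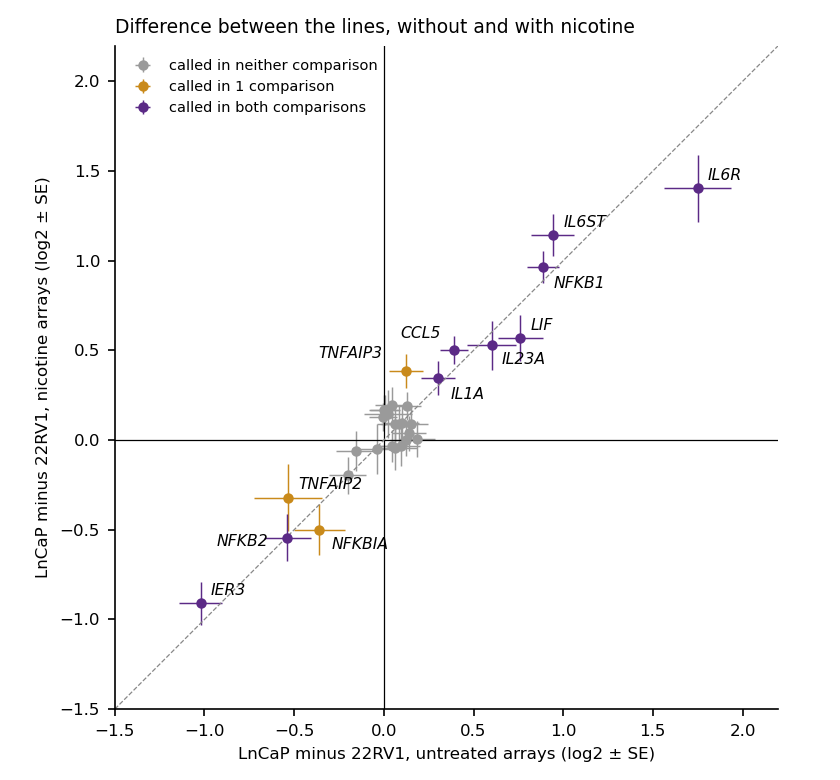
LnCaP minus 22RV1 difference (log2 ± SE) of the 31 measured genes on untreated arrays (horizontal axis) and on nicotine-treated arrays (vertical axis), 3 against 3 arrays each. The 9 genes called in both comparisons (purple) lie near the dashed line of equal values, from IER3 (-1.02 and -0.91) to IL6R (1.75 and 1.40), and most of the 19 genes called in neither (grey) lie near 0.

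**Figure D5:**
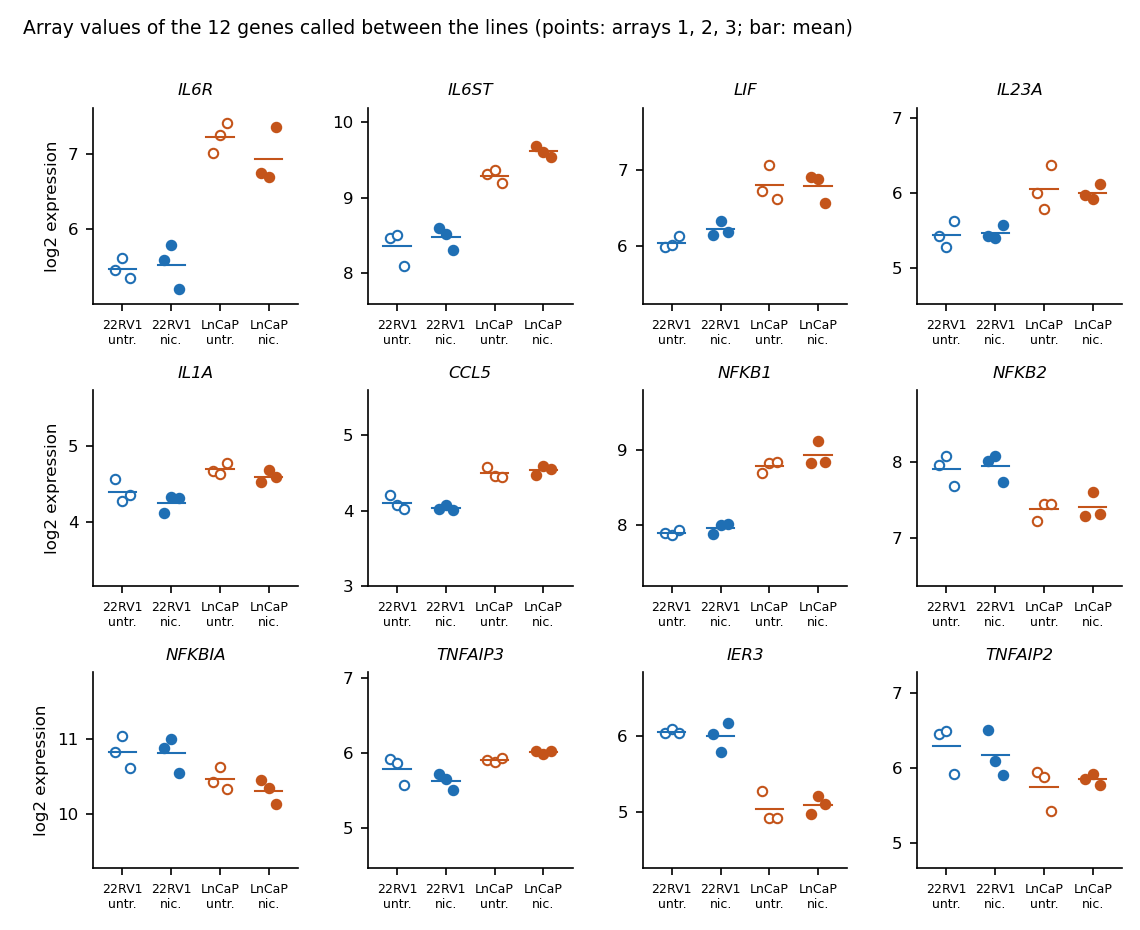
Log2 expression on each of the 12 arrays (points, in the order of replicates 1, 2 and 3, with the group mean as a bar) for the 12 genes called between the lines in at least 1 comparison, with every panel spanning the same range of log2 units. For IL6R, IL6ST, LIF, IL23A, IL1A, CCL5, NFKB1, NFKB2 and IER3 all arrays of one line lie beyond all arrays of the other, with and without nicotine. Over all genes, 55.6% did not overlap between the lines untreated and 58.9% with nicotine.

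The other genes of the pathway were taken from lists that hold none of the 34. After nicotine, limma called 0 of 12 further NF-kappaB core genes, 0 of 26 receptors and adaptors upstream of it, 0 of 13 chemokine and cytokine receptors, 0 of 10 genes of the JAK-STAT3 arm and 0 of 26 other inducible genes, in 22RV1 and in LnCaP alike. At an unadjusted p under 0.05 there were 1, 0, 0, 1 and 0 of them in 22RV1, and 2, 3, 0, 1 and 2 in LnCaP. Over all genes 5.29% and 12.2% had such a p, and 0% and 0.694% were called. With the replicate block, TNFSF10, which encodes the death ligand TRAIL, fell by 0.56 in LnCaP (adjusted p = 0.0196, and 0.113 without the block), and MAP3K14, the kinase NIK of the non-canonical arm, fell by 0.32 (adjusted p = 0.0473, and 0.141 without). No other gene of these lists passed with the block in either line, where 0% of all genes were called in 22RV1 and 5.39% in LnCaP.

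Between the untreated lines, the JAK-STAT3 arm of interleukin-6 signalling had 6 of 10 genes called, 2 higher in LnCaP and 4 lower, with a list median of -0.29 (47.8% of all genes called, median 0.047). STAT3, the transcription factor activated through IL6ST, was higher in LnCaP by 2.76 ± 0.12 (SE, n = 3 per group, limma adjusted p = 2.91e-09), from 0.85 ± 0.13 against the array median in 22RV1 to 3.67 ± 0.16 in LnCaP. The kinase gene JAK2 was higher by 1.13 and CEBPD, a transcription factor gene of the acute phase response, was lower (-0.86). All 3 were called the same way with nicotine, at 2.49, 1.23 and -0.95. Of the 12 core genes, 5 were called, 2 higher and 3 lower, and CHUK, which encodes IkappaB kinase alpha, was at -0.77, REL at -0.53 and IKBKG, the regulatory subunit of the kinase complex, at 0.37. RELA, the most widely used subunit gene, did not pass (0.18, adjusted p = 0.0882).

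For the next lists too, the share of all genes called between the untreated lines was 47.8% (25.4% higher in LnCaP and 22.4% lower). Upstream, 14 of 26 receptors and adaptors were called, 9 higher and 5 lower. The adaptor gene TRAF5 was lower in LnCaP (-2.37), as was MAP3K7, which encodes the kinase TAK1 (-1.21), and TRAF3, an adaptor that restrains NIK, was higher (1.15). Among the chemokine and cytokine receptors 2 of 13 were called: LIFR, the partner of IL6ST for LIF, was higher (0.64) and IL1R2, a decoy receptor for interleukin-1, lower (-1.22). Of the other inducible genes 7 of 26 were called, 6 higher and 1 lower, with TNFSF15 at 1.63, IL32 at 1.08 and TNFSF10 at 1.07. Of the marker lists, 4 of 8 luminal markers were called between the untreated lines, all higher in LnCaP, by up to 4.09. Of 9 fibroblast markers 3 were called, 1 higher and 2 lower, with LUM at -3.62 and COL3A1 at 1.22. Of 8 endothelial markers 3 were called, all higher, with VWF at 3.23. Of 13 leukocyte markers 1 was called, LYZ (0.19, limma adjusted p = 0.0492). The part of these markers in the results above was not tested.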

How the data were processed

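Per the labels' protocols, TRIzol was used for total RNA, and biotinylated cRNA went onto the Affymetrix arrays. The authors deposited log2 expression values for 22277 probe sets on 12 arrays, and their normalization, software and log base were not given in the sources used here; log2 was taken from the range of the values. Of the probe sets, 19070 had 1 gene symbol in the platform annotation, 1043 had several and 2164 were unlisted. The 31 members came from 18 genes with 1 such probe set and 13 with several.

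Values were fitted as deposited, without a filter, by limma 3.58.1 (R 4.3.3, eBayes) to 4 group means over all 12 arrays. Tests were two-sided, with Benjamini-Hochberg adjustment over 11963 genes and calls at an adjusted p under 0.05. The fit was tested on simulated data. The number of arrays limits the precision: the median SE of a difference was 0.0999 over the members.

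Same-numbered untreated and treated arrays deviated together within a line (r from 0.225 to 0.640, the numbers taken from the labels). Arrays numbered 1 and 2 also did (r from 0.0455 to 0.270 for different numbers), and those numbered 3 stood apart from both (r from -0.531 to -0.218). For the members, a fit with the number as a block is given where it changes a call. For the pathway lists it is given for nicotine alone. Array values were given for the members called in any comparison, for IL6, CXCL8, TNF and NFKBIA, and nicotine values for the 3 smallest p-values per line. Of each pathway list, up to 3 called genes with the largest difference were named, and RELA and the markers were named after their values were seen. The members, lists and tests were chosen with earlier results of these data known.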

Additional observations from a re-analysis of the deposited data

Results flagged for a closer look

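The probe set used for TNFAIP3 had nicotine values of opposite sign in the lines: the treated array was lower in 3 of 3 same-numbered pairs of 22RV1 (-0.20, -0.20 and -0.06) and higher in 3 of 3 of LnCaP (0.12, 0.11 and 0.10). The difference of the effects, LnCaP minus 22RV1, was a log2 value of 0.26 ± 0.13 (SE, 3 arrays a group), and in limma it did not pass (adjusted p = 0.829, and 0.290 with the replicate block). The dimmer probe set of TNFAIP3 did not show this, at -0.0024 in 22RV1 and -0.066 in LnCaP, a difference of -0.063. A pattern of this kind was looked for in all 31 genes, and TNFAIP3 was the gene that showed it. The share of all genes with such a pattern was not counted, so it is not read as particular to TNFAIP3.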

How the results depend on the processing

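The 21 line differences of called genes kept their direction in all 427 runs of the alternatives and their call in 417. The 10 lost calls were those of IL1A and TNFAIP2 on untreated arrays and of NFKBIA on treated ones. TNFAIP2 was lost also after quantile normalization (adjusted p = 0.0559) and with only the arrays compared in the fit (adjusted p = 0.0511). With the replicate block within a line, 1 member was called for nicotine in LnCaP in place of 0, and with only the genes above the median of all probe sets, which left 6 members to test, 4 were called in each line comparison in place of 10 and 11. In the comparison of the lines same-numbered arrays share only a number (lowest r 0.0647), and the block gave 11 and 13 called members, where 52.6% and 54.7% of all genes were called. The members added by the block were NFKBIA on untreated arrays and CCL20 and TNFAIP2 on treated ones. Leaving out 1 array at a time gave 8 to 11 called members on untreated and 10 to 12 on treated arrays, and 0 for each nicotine comparison. The other alternatives together gave 4 to 14 called members on untreated and 4 to 15 on treated arrays. Some nicotine values near 0 changed sign. In 22RV1, NFKBIA was at 0.0093 without the arrays numbered 3 and 0.0074 after quantile normalization, and TNF at 0.018 with array weights. Leaving out 1 array moved NFKBIA in 22RV1 between -0.12 and 0.12, TNF between -0.064 and 0.065, IL6 between -0.034 and 0.13, and CXCL8 in LnCaP between -0.11 and 0.075. Centring on the array median moved the median of all genes in the untreated line comparison by 0.062.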
